A study of Drosophila melanogaster with 4 samples.

Results

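Aminoacyl-tRNA synthetases are the enzymes that attach each amino acid to its tRNA, and their genes are described here in Drosophila larvae homozygous for a mutation of Xbp1 and in larvae of a control line. The members were the genes whose symbol in the gene table starts with Aats- or is an amino acid name followed by RS, a rule that used no measured value. It found 21 of the 15340 genes in the table, all of them under Aats- names. The libraries labelled mutant came from Xbp1 ex79 -/- larvae, which carry an imprecise excision allele that deletes sequence on both sides of the Xbp1 start codon. The libraries labelled control came from Xbp1+/+ larvae of a precise excision line derived from the same parent insertion, so that both genotypes go back to 1 line. RNA of whole larvae in the 2nd instar was extracted 2 times per genotype, giving 4 total RNA libraries made after removal of ribosomal RNA, and the sources do not give the number of larvae per extraction.

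Xbp1 is the transcription factor that the endoplasmic reticulum stress sensor Ire1 activates by splicing its mRNA, and PERK (PEK in the fly), another sensor in the same membrane, phosphorylates the initiation factor eIF2alpha. The kinase Gcn2 phosphorylates the same factor when uncharged tRNA accumulates, and the phosphorylated factor favours translation of the transcription factor ATF4, the product of crc in the fly. In mammals, ATF4 is known to activate genes of amino acid supply, among them many cytosolic synthetases. Cytosolic synthetases charge tRNAs for the main protein synthesis of the cell, whereas separate nuclear genes encode many of the enzymes that work inside mitochondria.

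The libraries labelled mutant held 37122025 and 38601267 reads on genes, and the libraries labelled control held 34947910 and 31416284. All values below are read counts divided by a size factor per library, called normalized counts, in which 3 reads correspond to 2.69 to 3.62. Xbp1 itself had 6087 and 5953 normalized counts in the libraries labelled mutant, against 5521 and 7378 in those labelled control (adjusted p = 0.852 in limma, log2 fold change -0.08). The groups therefore overlapped at the targeted gene, whose table row sums over the whole gene and not the deleted stretch alone, and the labels could not be checked by it. The 5 spermatocyte marker genes aly, can, comr, mia and sa summed to 50.2 and 156 normalized counts in the libraries labelled mutant, against 783 and 288 in those labelled control. All 5 were lower in the libraries labelled mutant without overlap, against 27.9% of all genes tested. DESeq2 called aly and sa lower (adjusted p = 0.0181 and 0.0305), against 1.36% of all genes, and limma called none of the 5. The 5 midgut markers summed to 633 and 640 in the libraries labelled mutant, against 4294 and 403 in those labelled control. The first control library stood apart through the proteases Jon65Aiii and Jon65Aiv, with 1333 and 2616 normalized counts, against 16.9 and 22.9 in the second control library. Both proteases were lower still in the libraries labelled mutant, without overlap. DESeq2 called both lower (adjusted p = 0.0429 and 0.0415), and limma called neither. The markers alphaTry and betaTry were at or near 0 in every library. The fifth marker, Myo31DF, went the other way, with 624 and 618 normalized counts in the libraries labelled mutant, against 329 and 363 in those labelled control, and made up nearly all of the sums in the libraries labelled mutant. Fat body and hemocyte markers gave sums that overlapped between the groups. Among the hemocyte markers, nimC1 was higher without overlap (log2 fold change 1.26) and Pxn lower without overlap (-0.37). The groups overlapped in the third, Hml. The muscle markers summed to 296 and 395 in the libraries labelled mutant, against 211 and 254 in those labelled control. Of these, Act57B was higher without overlap (log2 fold change 1.37), while the groups overlapped in Mhc and wupA. The 2 neuron markers matched went opposite ways, with log2 fold changes of 1.01 for elav and -1.10 for brp. In such bulk samples, fewer cells of a type and less RNA per cell cannot be told apart.

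The Aats- names do not say which compartment an enzyme serves, and only 1 of the 21 carries the suffix -m. By current symbols, 15 members encode cytosolic enzymes: Aats-ala, Aats-arg, Aats-asn, Aats-asp, Aats-cys, Aats-gln, Aats-glupro, Aats-gly, Aats-his, Aats-ile, Aats-lys, Aats-thr, Aats-trp, Aats-tyr and Aats-val. The other 6 encode mitochondrial enzymes and are now called AlaRS-m (Aats-ala-m), LeuRS-m (Aats-leu), MetRS-m (Aats-met), PheRS-m (Aats-phe), ProRS-m (Aats-pro) and SerRS-m (Aats-ser). No separate mitochondrial gene was matched here for the enzymes of glutamine, glycine, histidine, lysine and threonine. The members for these amino acids were counted as cytosolic by their symbols, whether or not they also serve mitochondria. The cytosolic enzymes for leucine, methionine, phenylalanine and serine, and most of the remaining mitochondrial enzymes, stood in the table under CG numbers. There were 14 such genes, described after the members.

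The members lie on every large chromosome arm of the dm6 genome, with 3 on 2L, 4 on 2R, 6 on 3L, 5 on 3R and 3 on X. Their exonic length ranged between 1517 and 5453 bp, and a member received between 27 and 5789 reads in a library. All 21 passed the minimum mean of 10 normalized counts that was set for testing.

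Set per kb of exon, Aats-asp (AspRS) was the most abundant of the 35 synthetase genes in the table, with a mean of 2278 normalized counts per kb in libraries labelled mutant and 1515 in those labelled control. Aats-tyr (TyrRS) followed with 689 per kb in libraries labelled mutant and 642 in those labelled control. Aats-asn (AsnRS), with 605 and 418 per kb, came next in the control libraries only, since CG17259 (SerRS), with 625 and 405 per kb, stood above it in the libraries labelled mutant. At the other end of the cytosolic members, Aats-his (HisRS) had 173 per kb in libraries labelled mutant and 156 in those labelled control. Among the mitochondrial members only Aats-phe, with 215 and 196 per kb, reached the level of the cytosolic ones. Aats-ala-m had 67.6 and 80.5 per kb, Aats-ser 56.7 and 62.0, Aats-leu 36.7 and 47.1, Aats-pro 17.8 and 29.1, and Aats-met 16.6 and 24.6.

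**Figure D1:**
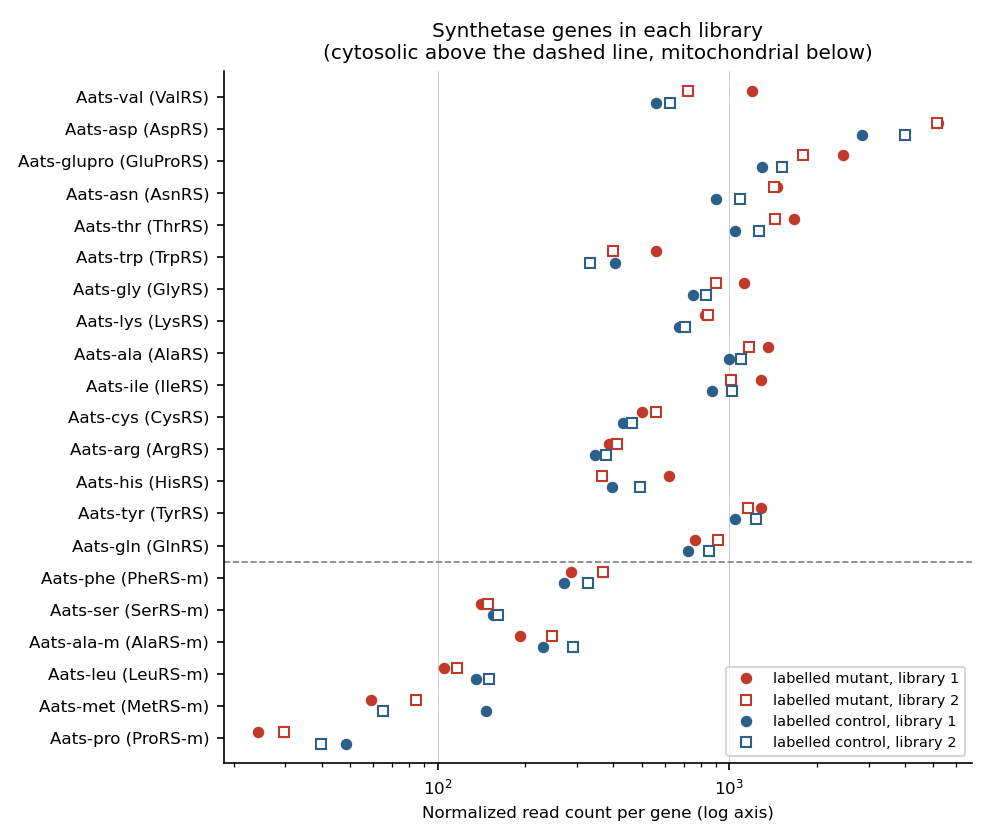
Normalized counts of the 21 synthetase members in each of the 4 libraries, on a log axis. In every gene the libraries labelled mutant are drawn above those labelled control. The cytosolic genes mostly have higher counts than the mitochondrial ones. In 10 of the 15 cytosolic genes both libraries labelled mutant have higher counts than both control libraries, against 26.2% of all genes tested.

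The question of the comparison was which transcripts differ in larvae that lack the Xbp1 branch of the stress response. All 15 cytosolic members had a higher mean log2 level in the libraries labelled mutant, although only 11 did when the libraries were rescaled to the same total without the 10 highest genes. Their log2 fold changes ranged between 0.09 and 0.64, with a median of 0.28, or 1.21-fold, and of 0.11 after that rescaling. In 10 of the 15, both libraries labelled mutant lay above both control libraries, a pattern found in 26.2% of all 10500 genes tested. The 6 mitochondrial members had a median log2 fold change of -0.30, or 0.81-fold, with 5 of 6 below 0, and a median of -0.028 with 4 below 0 after quantile normalization. In 3 of the 6, both libraries labelled mutant lay below both control libraries, against 27.9% of all genes. Log2 fold changes above 0 made up 47.8% of all genes and those below 0 made up 52.2%, with a median of -0.03.

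None of these differences passed the test. With limma, 0 of the 21 members had an adjusted p below 0.05 in either direction, while 0.00952% of all genes were called higher, which is 1 gene, and 0% lower. The smallest adjusted p of a member was 0.347. At an unadjusted p below 0.05, 2 members were higher and 0 lower, against 6.89% and 7.24% of all genes. DESeq2 and edgeR on the recovered reads also called 0 members, while DESeq2 called 1.7% of all genes higher and 1.36% lower. At an unadjusted p below 0.05 there was 1 member in DESeq2, against 1793 of all 10500 genes tested. In edgeR there were 3 members, against 1443 of all genes. With 2 libraries per group, the smallest two-sided p that permuting the labels exactly could give for a gene was 0.333.

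The shift of all genes depended on their level, which bears on both classes. Among the 2951 genes whose mean lay in the range of the cytosolic members, 381 to 4297 normalized counts, 61% were higher in the libraries labelled mutant and 39% lower, and the median log2 fold change was 0.09. Both libraries labelled mutant lay above both control libraries in 33% of them and below in 19%. Among the 4773 genes in the range of the mitochondrial members, 35.6 to 314 normalized counts, 63% were lower and 37% higher, and the median was -0.21. Both libraries labelled mutant lay below both control libraries in 36.6% of them and above in 20.3%. Under this scaling, the cytosolic members lay further to the higher side than the genes in their range, by count and by median. The mitochondrial members lay near the genes in theirs. Genes were not matched by level within a range, and the ranges were not examined under other scalings.

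Among cytosolic members, the ones with the smallest unadjusted p were those for aspartate and asparagine. Aats-asn, which charges tRNA with asparagine and lies on 2L between positions 19129469 and 19131954, had 1456 and 1417 normalized counts in the libraries labelled mutant, against 901 and 1087 in those labelled control. Both libraries labelled mutant lay above both control libraries by more than the distance within either group. Its log2 fold change was 0.54 (SE 0.19, 95% interval 0.06 to 1.01, unadjusted p = 0.034 and adjusted p = 0.347 in limma). No other gene's exons overlapped more than 5% of its exonic bases.

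Aats-asp, which charges tRNA with aspartate and lies on 2R between positions 12877004 and 12883168, had 5187 and 5135 normalized counts in the libraries labelled mutant, against 2856 and 4011 in those labelled control. The mutant libraries were close to each other, and the control libraries lay further apart. The log2 fold change was 0.61 (SE 0.22, 95% interval 0.04 to 1.18, unadjusted p = 0.0406 and adjusted p = 0.347 in limma). It was 0.36 without the first control library and 0.85 without the other. Exons of other genes, on both strands, overlapped up to 76.3% of its exonic bases, a sum over genes that can count a base more than once. Among these genes was the antisense neighbour Nmda1, a subunit of a glutamate receptor. Nmda1 had 1078 and 968 normalized counts in the libraries labelled mutant, against 798 and 907 in those labelled control. The kit marks strand, but the strand setting of the counting is not given in the sources used here, so the share of reads belonging to each gene is uncertain.

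Aats-val (ValRS), for valine, had the highest log2 fold change of the 21 members at 0.64 (SE 0.29, adjusted p = 0.35 in limma). It had 1193 and 719 normalized counts in the libraries labelled mutant, against 559.9 and 626 in those labelled control. Most of the difference came from the first mutant library, and the log2 fold change was 0.28 without it. Aats-glupro (GluProRS), a fused enzyme for glutamate and proline, had 2447 and 1787 normalized counts in the libraries labelled mutant, against 1295 and 1519.5 in those labelled control. Its log2 fold change was 0.58 (SE 0.23, adjusted p = 0.347 in limma) and was 0.35 without the first mutant library, and 16.6% of its exonic bases were shared with an antisense RNA gene.

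Aats-thr (ThrRS), for threonine, had 1664 and 1429 normalized counts in the libraries labelled mutant, against 1042 and 1263 in those labelled control, a log2 fold change of 0.43 (SE 0.20). Aats-gly (GlyRS), for glycine, had 1120.1 and 897 normalized counts in the libraries labelled mutant, against 752 and 829.7 in those labelled control, a log2 fold change of 0.34. Aats-ala (AlaRS), for alanine, had 1361 and 1172 normalized counts in the libraries labelled mutant, against 997 and 1096 in those labelled control, a log2 fold change of 0.27. In all 3 genes the gap between the groups was smaller than the difference between the mutant libraries.

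The remaining cytosolic members without overlap were Aats-lys (LysRS), Aats-cys (CysRS) and Aats-arg (ArgRS), for lysine, cysteine and arginine. Aats-lys had 823 and 848 normalized counts in the libraries labelled mutant, against 672 and 705 in those labelled control, a log2 fold change of 0.28 that ranged between 0.24 and 0.31 when libraries were left out in turn, the narrowest range among the cytosolic members. Aats-cys had a log2 fold change of 0.25 and Aats-arg one of 0.14. The groups overlapped in Aats-trp (TrpRS, 0.37), Aats-ile (IleRS, 0.27), Aats-his (0.11), Aats-tyr (0.11) and Aats-gln (GlnRS, 0.09), which charge tRNAs with tryptophan, isoleucine, histidine, tyrosine and glutamine. Aats-his showed the widest spread, with 621 and 367 normalized counts in the libraries labelled mutant against 396 and 496 in those labelled control.

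**Figure D2:**
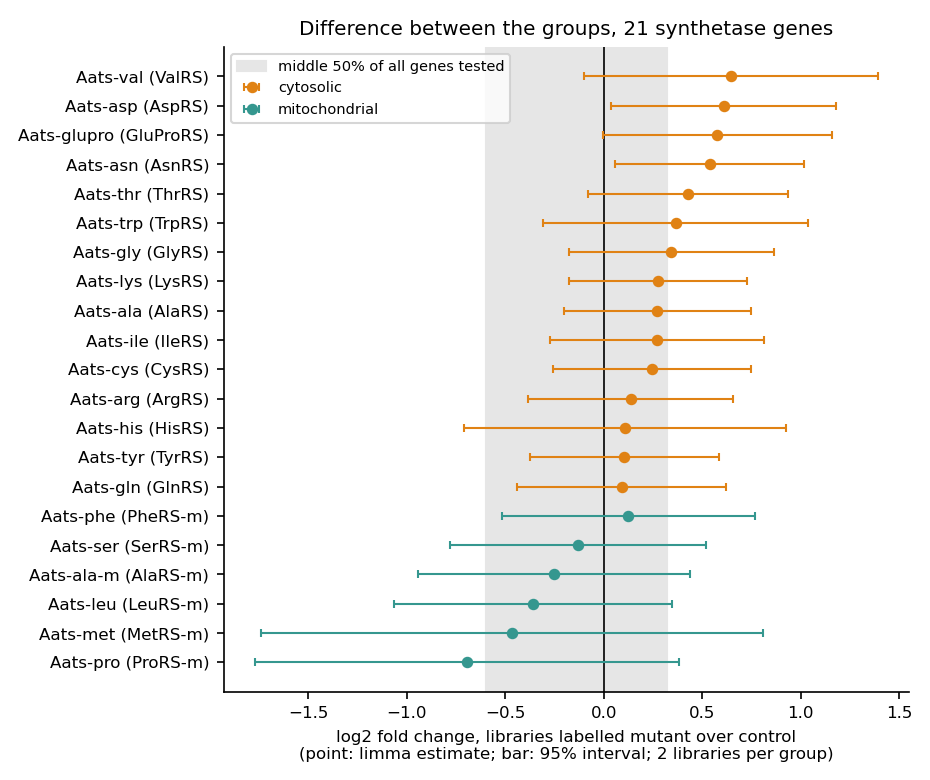
Log2 fold change of each of the 21 members, libraries labelled mutant over control, with 95% intervals of limma's fit, cytosolic genes above mitochondrial genes. All 15 cytosolic genes lie to the right of 0 (11 after rescaling without the 10 highest genes) and 5 of the 6 mitochondrial genes to the left (4 after quantile normalization), but the interval excludes 0 only for Aats-asn and Aats-asp.

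In mammals, some cytosolic synthetases sit in a large multisynthetase complex. Among the members, AspRS, GluProRS, IleRS, LysRS, GlnRS and ArgRS have counterparts in it. So do LeuRS (CG33123, log2 fold change 0.06, groups overlapping) and MetRS (CG15100, -0.70, lower without overlap). These CG-numbered genes are not members and were not counted here. The 6 members with counterparts in the complex had a median log2 fold change of 0.27, with 4 of 6 higher without overlap. The other 9 cytosolic members had a median of 0.34, with 6 of 9. The 3 scaffold proteins of the complex had a median of 0.05, with AIMP1 at 0.16, AIMP2 at 0.05 and AIMP3 at -0.07. Synthetases also fall into classes by the fold of their catalytic domain. The 7 class I members had a median of 0.25 with 3 higher without overlap, and the 7 class II members a median of 0.34 with 6 higher without overlap, Aats-glupro counting in neither because it holds both. Over the 12 cytosolic members with less than 5% of exonic bases overlapped by other genes, the median was 0.28 and 8 were higher without overlap. Of all genes tested, 26.2% were higher without overlap, and of genes in the range of the cytosolic members 33%. The differences between complex and class groups were not tested.

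The libraries within a group also differed in the cytosolic members. The first mutant library held the highest value in 11 of the 15 cytosolic members and the first control library the lowest value in 13, against 29.8% and 34.6% of all genes. Taken library by library, the median log2 ratio of the cytosolic members was 0.56 between the first mutant and the first control library, with 15 of 15 higher. It was 0.33 between the first mutant and the second control library, with 14 higher, and also 0.33 between the second mutant and the first control library, with 13 higher. Between the second mutant and the second control library it was 0.18, with 12 higher. Of the mitochondrial members, 5 of 6 had their lowest value in the first mutant library, against 34% of all genes, and the highest value lay in the second control library in 3, the first control library in 2 and the second mutant library in 1.

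Among the mitochondrial members, Aats-pro, which charges mitochondrial tRNA with proline and lies on 3L between positions 2650161 and 2651850, had the lowest log2 fold change. It had 24.2 and 29.7 normalized counts in the libraries labelled mutant, against 48.6 and 39.8 in those labelled control. The groups did not overlap, but each value rested on few reads, and the log2 fold change of -0.69 (SE 0.42) had an adjusted p of 0.424 in limma. Aats-leu, for leucine, had 105 and 117 normalized counts in the libraries labelled mutant, against 135 and 149.5 in those labelled control, a log2 fold change of -0.36. Aats-ser, for serine, had 141 and 149 in the libraries labelled mutant, against 155 and 162 in those labelled control, a log2 fold change of -0.13.

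Aats-met, for methionine, had 59.1 and 84.1 normalized counts in the libraries labelled mutant, against 147 and 65.1 in those labelled control. Its log2 fold change of -0.47 rested on the first control library and was 0.11 without it. Aats-ala-m, for alanine, had 191 and 246 normalized counts in the libraries labelled mutant, against 229.6 and 291 in those labelled control, a log2 fold change of -0.25. Aats-phe, for phenylalanine, was the mitochondrial member above 0, at 0.13, with 287 and 369 normalized counts in the libraries labelled mutant, against 271 and 328 in those labelled control. In these 3 genes the groups overlapped.

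The 14 synthetase genes under CG numbers were chosen on their current symbols after the table had been opened. Of the 5 cytosolic ones, CG17259 (SerRS), for serine, had 1276 and 1114 normalized counts in the libraries labelled mutant, against 652 and 897 in those labelled control. Its log2 fold change of 0.64 (unadjusted p = 0.0383, adjusted p = 0.347 in limma) was close to the highest among the members, and was 0.41 without the first control library. The alpha subunit of PheRS, CG2263, had a log2 fold change of 0.39 and the beta subunit, CG5706, one of 0.09, although both are parts of 1 enzyme. CG33123 (LeuRS) had 632 and 583 normalized counts in the libraries labelled mutant, against 558 and 609 in those labelled control, a log2 fold change of 0.06. CG15100 (MetRS), which also supplies the initiator tRNA, ran the other way, with 424 and 548.5 normalized counts in the libraries labelled mutant, against 1034 and 598 in those labelled control, a log2 fold change of -0.70. The value was -0.31 without the first control library and -1.10 without the other. It was the 1 cytosolic synthetase of 20 with a log2 fold change below 0.

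Of the 9 mitochondrial synthetases under CG numbers, 7 had a log2 fold change below 0 and 5 had both libraries labelled mutant below both control libraries. Over all genes those shares were 52.2% and 27.9%, and among genes at the level of the mitochondrial members 63% and 36.6%. By mean count, CG31739 and CG7441 lay above that level and CG4573 (GluRS-m) below it. CG7441 (TrpRS-m), for tryptophan, had 245.5 and 477 normalized counts in the libraries labelled mutant, against 1363 and 615 in those labelled control, a log2 fold change of -1.42 (unadjusted p = 0.0357, adjusted p = 0.347 in limma and 0.0859 in DESeq2). CG5660 (ValRS-m), for valine, had 51.1 and 146 in the libraries labelled mutant, against 432 and 163 in those labelled control, which gave -1.61 as log2 fold change (adjusted p = 0.169 in DESeq2). CG8257 (CysRS-m), for cysteine, had 118 and 162 in the libraries labelled mutant, against 331 and 192 in those labelled control, a log2 fold change of -0.86. Leaving out the first control library gave -0.84 for CG7441, -0.91 for CG5660 and -0.47 for CG8257.

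In these 3 genes, in CG31739 (AspRS-m) and in CG15100 the order of the libraries was that of the summed spermatocyte markers, the first mutant library lowest and the first control library highest. The summed markers had 50.2 and 156 normalized counts in the libraries labelled mutant, against 783 and 288 in those labelled control. The part of these cells in the differences was not tested. Aats-pro, the member with the lowest log2 fold change, had the same order of libraries. Over all genes, the first control library was highest in 38.7% and the first mutant library lowest in 34%. The share of all genes with the whole order was not counted. The other CG-numbered mitochondrial genes lay between -0.45 for CG31739 and 0.28 for CG16912 (TyrRS-m).

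For most amino acids the table held a cytosolic and a mitochondrial enzyme, which allowed 16 pairs to be formed. In 13 of the 16 the cytosolic gene had the higher log2 fold change, and the median difference was 0.53. In 12 of the 16 the count ratio of cytosolic to mitochondrial gene in either library labelled mutant exceeded that in either library labelled control. A ratio within a library does not depend on how that library was scaled, but it does not remove the shift with level described above. The median log2 fold change was 0.09 for all genes at the level of the cytosolic members. At the level of the mitochondrial members it was -0.21. For alanine, where both genes are members, the ratio was 7.13 and 4.76 in the libraries labelled mutant, against 4.34 and 3.77 in those labelled control. For proline, served by Aats-glupro in the cytosol and Aats-pro in mitochondria, it was 101.1 and 60.1 in the libraries labelled mutant, against 26.6 and 38.2 in those labelled control. For aspartate it was 9.32 and 8.16 in the libraries labelled mutant, against 3.39 and 5.12 in those labelled control. For tryptophan it was 2.28 and 0.837 in the libraries labelled mutant, against 0.298 and 0.539 in those labelled control. The groups overlapped in the pairs of isoleucine, methionine, the beta subunit for phenylalanine, and tyrosine. The pairs share libraries and in some cases a gene, and no test was made over them. The share of such pairs among other genes of these levels was not counted, so the counts cannot be read as particular to synthetases.

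**Figure D3:**
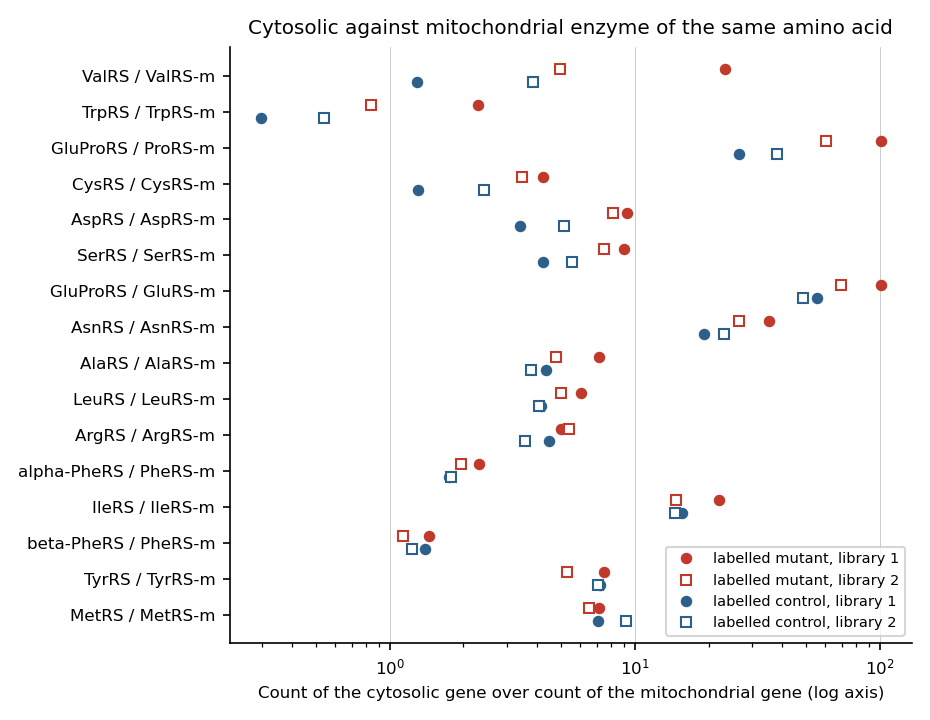
Count of the cytosolic gene over count of the mitochondrial gene in each of the 4 libraries, on a log axis, for each of the 16 pairs. In 12 pairs both libraries labelled mutant have a higher ratio than both control libraries. The share of such pairs among other genes was not counted. The groups overlap in the pairs of isoleucine, methionine, tyrosine and the beta subunit for phenylalanine.

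Elongation factors, the proteins that work with charged tRNA on the ribosome, were set beside the synthetases. Of the 7 cytosolic elongation factors, 5 had a log2 fold change above 0 and 4 were higher without overlap (26.2% of all genes), with a median of 0.29. The 2 below 0 were Ef1alpha100E (-0.41) and eEF1delta (-0.15). The translation factor eIF-5A (eEF5) had 17011 and 13550.1 normalized counts in the libraries labelled mutant, against 8718 and 11518 in those labelled control, a log2 fold change of 0.60. All 4 mitochondrial elongation factors had a log2 fold change below 0, 3 of them lower without overlap (27.9% of all genes), with a median of -0.58. CG6412 (mEFTs), which recycles the mitochondrial factor that carries charged tRNA, had 305 and 465 normalized counts in the libraries labelled mutant, against 939.8 and 534 in those labelled control, a log2 fold change of -0.91 that was -0.50 without the first control library. This gene, EfTuM (mEFTu1) and ico (mEFG1) followed the library order of the spermatocyte markers, and CG12736 (mEFTu2) did not. No elongation factor passed the threshold in limma.

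The 8 genes of tRNA maturation and modification gave no common direction. Of the 7 tested, 2 had a log2 fold change above 0 and 5 below, with a median of -0.11. The group of mitochondrial transamidation and SLIMP holds the enzyme that makes mitochondrial glutaminyl-tRNA and a protein related to SerRS-m. In it, gatA had a log2 fold change of -0.39, GatB (CG5463) one of -0.11 and Slimp one of 0.32, all without overlap. Over all genes, 27.9% were lower and 26.2% higher without overlap. GatC (CG33649) was listed at 0 in all 4 libraries.

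Of the 15 genes of the PERK and Gcn2 to ATF4 pathway, 14 had a log2 fold change above 0 and 9 were higher without overlap, with a median of 0.35. Over all genes those shares were 47.8% and 26.2%, and among genes at the level of the cytosolic members 61% and 33%. By mean count, crc, Thor, CG6287 and CG3011 lay above that level and chrb below it. The list was chosen with earlier results of these libraries known. None passed the threshold in limma, 3 had an unadjusted p below 0.05, and DESeq2 called 1. That gene was trbl, a Tribbles pseudokinase, with 980.3 and 767 normalized counts in the libraries labelled mutant, against 335 and 297 in those labelled control. Its log2 fold change was 1.46 (SE 0.22, adjusted p = 0.250 in limma and 6.81e-04 in DESeq2). The other 2 were chrb and scyl, both inhibitors of the growth kinase TOR, with log2 fold changes of 0.90 and 0.70.

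Of the regulators of the pathway, the transcription factor gene crc had 12939 and 11637 normalized counts in the libraries labelled mutant, against 10267 and 11832 in those labelled control, with overlapping groups and a log2 fold change of 0.15. The kinases PEK and Gcn2 had log2 fold changes of 0.36 and 0.28, eIF-2alpha one of 0.20, and Gadd34, a subunit of the phosphatase that acts on eIF2alpha, one of 0.06. Thor, the fly 4E-BP and an inhibitor of cap-dependent translation, had 7879 and 7345 normalized counts in the libraries labelled mutant, against 5269 and 6792 in those labelled control, a log2 fold change of 0.35. Among the genes of amino acid synthesis, asparagine-synthetase had 5483 and 2715 normalized counts in the libraries labelled mutant, against 2039.9 and 2166 in those labelled control, a log2 fold change of 0.88 that lay mostly in the first mutant library. The serine synthesis gene aay had 3639.9 and 3882 normalized counts in the libraries labelled mutant, against 1803 and 3037 in those labelled control, a log2 fold change of 0.68 that was 0.31 without the first control library. CG6287, at -0.05, was the gene of the list below 0, and CG3011 (0.51), CG11899 (0.33) and Nmdmc (0.30) had overlapping groups.

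**Figure D4:**
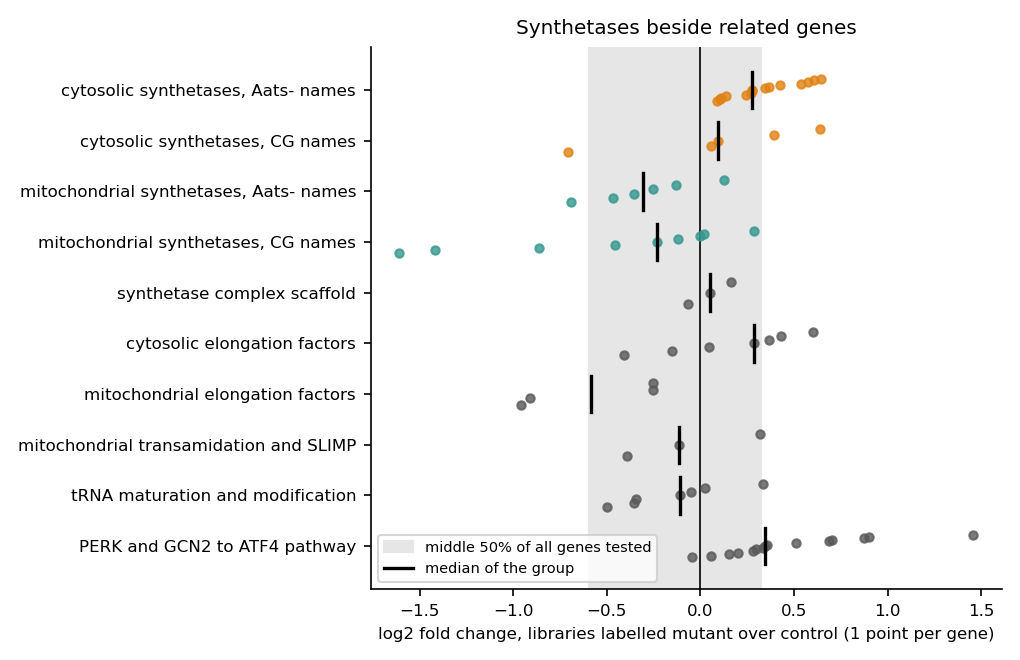
Log2 fold changes, libraries labelled mutant over control, of the synthetases and related gene groups, 1 point per gene, with a bar at each group's median and the middle 50% of all genes tested shaded. The cytosolic members have a median of 0.28 and the mitochondrial members one of -0.30, both inside the shaded range of -0.60 to 0.32, and the genes of the ATF4 pathway reach 1.46.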

How the data were processed

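The deposited table held counts normalized by the authors, a signal made by aligning reads to dm6 with TopHat2 2.1.1, counting them per gene with HTSeq 0.6.1 and dividing by DESeq2 size factors. The annotation and strand setting of the counting are not given in the sources used here. Every value was a whole multiple of 1 read's worth (100% within 0.01 reads), so whole reads were recovered for the count tests. Table names were matched to the RefSeq gene table and the BDGP6 annotation by symbol (11817), locus tag (2207) or synonym (1047), and 269 were not matched.

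The test was limma 3.58.1 in R 4.3.3 (lmFit, eBayes with trend) on log2(value + 1), which understates the change of low genes, for 10500 genes, those averaging at least 10 normalized counts. P-values were adjusted by the Benjamini-Hochberg method with a threshold of 0.05, and log2 fold changes, their SE and 95% intervals came from this fit. DESeq2 1.42.0 and edgeR 4.0.16 were run on recovered reads as alternatives. All tests were tried on simulated data. Further alternatives were the pseudocount, the filter, the scaling, the trend, a replicate block and leaving out each library.

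Every member was to be named, with values per library for those with an unadjusted p below 0.05 or the 6 largest absolute log2 fold changes, and others by their counts and ranges; values of further genes were added after they were seen. The members and gene lists were chosen with earlier results of these data known, and the split by compartment, complex and class rests on current symbols. The 2 libraries per group are separate extractions, and p-values measure the spread between these only. Limits given as reads cover counting error only. Sequences were not used here.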

Additional observations from a re-analysis of the deposited data

How the results depend on the processing

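No member was called in any alternative. The smallest adjusted p of a member was 0.119 over the 14 alternatives with all libraries. Over all genes, 1 was called higher and 0 lower in limma, 3 higher with no filter, 10 higher and 4 lower after rescaling to the same total, 12 and 4 after quantile normalization, 0 higher without the trend, and 179 and 143 in DESeq2. Leaving out a library gave 0 to 39 higher and 0 to 131 lower, the upper ends without the second mutant library. The replicate numbers did not pair the libraries (correlation of deviations -0.44); with the replicate block 0 genes were called higher in limma, and 95 higher and 73 lower in DESeq2. Crossing the numbers, chosen after seeing the data, gave 390 higher and 1410 lower in limma, and 334 and 1199 in DESeq2. The share of calls that were lower was 28.6% at the same total, 25% after quantile normalization and 44.4% in DESeq2. Rescaling without the 10 highest genes shifted the median of all genes by -0.17 and quantile normalization by 0.10. Under that rescaling the cytosolic median was 0.11, 11 of 15 were above 0, and Aats-arg (-0.030), Aats-gln (-0.077), Aats-his (-0.060), Aats-tyr (-0.062), Aats-phe (-0.041), CG33123 (-0.11), CG5706 (-0.073) and crc (-0.013) turned negative, yet all 15 cytosolic members stayed above the median of all genes. At the same total CG33123 was at -0.013 and the mitochondrial median at -0.38, with 7 cytosolic members apart from the controls. The mitochondrial median was -0.47 without the 10 highest genes and -0.028 after quantile normalization, where Aats-ser was at 0.17 and crc at -0.14. Leaving out a library moved the cytosolic median between 0.23 and 0.49 and the mitochondrial one between -0.43 and -0.15. The cytosolic members above 0 moved between 12 (without the first control library) and 15, and the mitochondrial members below 0 between 5 and 6. Between 11 and 14 cytosolic and 3 to 5 mitochondrial members were apart (5 without the second mutant library). Such counts of members apart can only stay or rise when a library is left out. The ranges of log2 fold changes crossed 0 for Aats-gln (-0.044 to 0.23), Aats-his (-0.27 to 0.49), Aats-tyr (-0.014 to 0.22), Aats-met (-1.05 to 0.11), Aats-phe (-0.056 to 0.31), CG33123 (-0.0046 without the first control library) and Xbp1 (-0.29 to 0.12). The causes were not tested. Depth limits Aats-pro and Aats-met most, with as few as 27 reads in a library.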
